A study of Mus musculus with 4 samples.

Results

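The genes described here make, break down and bind hyaluronan, and they were read in mouse embryonic fibroblasts with and without PA1. The set holds 10 genes, chosen by gene symbol for their known role: the synthases Has1, Has2 and Has3, the degrading factors Cemip, Hyal1 and Hyal2, and the binding proteins Cd44, Hmmr, Vcan and Tnfaip6. They had 26 probe sets of their own among 45037 on the array, and 17 of these, from 8 genes, were bright enough to be tested, against 22519 probe sets and 10714 genes tested in all. Both probe sets of Hyal1 are listed under Naa80 as well, so no value is given for Hyal1. Has3 had 1 dim probe set and is described without entering the comparison. The set was drawn up with knockout-against-wild-type values of these arrays already known, the low reading of Cemip among them. Its differences in that contrast are therefore a description, with no p-value for single members.

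The 2 PA1-/- arrays came from immortalised fibroblasts whose loxP-flanked PA1 alleles were exposed to a retrovirus carrying Cre recombinase, and the 2 PA1+/+ arrays from the same kind of cells given the empty retroviral vector. All cells thus carried the conditional allele, all were infected, and all went through puromycin selection (2.0 µg/ml for 3 days, done a second time) in medium with serum. The study asked which genes PA1 regulates. PA1 was read as Pagr1a, a subunit of the histone H3 lysine methyltransferase complexes built around KMT2C and KMT2D. Arrays of each genotype carry the numbers 1 and 2, with no word in the labels on what sets them apart, so part of the spread between them may be technical.

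Hyaluronan is a long, unsulfated sugar chain of the extracellular matrix. Synthases in the plasma membrane build it from UDP-glucuronic acid and UDP-N-acetylglucosamine and push it out of the cell, where link-domain proteins such as versican and TSG-6 (the product of Tnfaip6) bind it and CD44 holds it at the cell surface. Long chains are cut by hyaluronidases and by CEMIP, which human skin fibroblasts are known to need to depolymerise it.

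The targeted gene was low in both arrays labelled PA1-/-. The brightest probe set of Pagr1a read 108 and 113 in PA1-/- arrays, against 1340 and 1389 in PA1+/+ arrays. With 9.96 added to each signal, as below, this is 11.4-fold lower. Every array had a median signal between 63.2 and 66.4. Arrays of the same number were more alike (r = 0.971 and 0.977 across tested probe sets) than arrays of the same genotype (0.920 for PA1-/- and 0.918 for PA1+/+). Genotype differences are therefore also given within each number. They are on the scale of log2(signal + 9.96), PA1-/- minus PA1+/+, which understates the change of dim genes. With genotype as the only term, limma called 0 of 22519 probe sets at an adjusted p under 0.05 (0%), and 440 had an unadjusted p under 0.05 (1.95%). Among the hyaluronan probe sets 0 of 17 were called. This fit counts the gap between numbers as spread. It did not call Pagr1a either, and every list below likewise had 0 called. A count of 0 called therefore does not show that a gene or list was unchanged. The fit with the number as a block is given at the end.

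The fibroblast markers Vim and Col1a2 had signals of 16542 or more on every array, while the marker Thy1 read between 94.6 and 280. All 7 fibroblast markers were tested and all 7 had differences below 0, 6 of them at both numbers (29.3% of all tested genes), with a summed signal of 54473 and 67116 in PA1-/- arrays, against 63914 and 80345 in PA1+/+ arrays. The 1 at least 2-fold lower at both numbers (0.831% of all tested genes) was Dcn, which encodes the proteoglycan decorin. It read 41.4 and 37.9 in PA1-/- arrays, against 138 and 103 in PA1+/+ arrays. Both PA1-/- values lay under the signal of 62.8 that marks the boundary for testing. Dcn was thus tested through its level in PA1+/+ cells, and nothing is read from its being the 1. Defining markers of macrophages (Ptprc, Adgre1), endothelium (Pecam1, Cdh5) and epithelium (Cdh1, Krt5) were too dim to be tested. Tested markers of these and 2 other types had differences of 0.72 for Csf1r and -0.32 for Cd68 (macrophage), 0.21 for Kdr (endothelium), 0.33 for Krt18 and -0.07 for Epcam (epithelium). Krt18 had opposite signs at the numbers (-0.16 and 0.81). Among chondrocyte markers Col2a1 was at -1.22, which came from number 2 (0.07 and -2.50), and Acan at -0.31, with opposite signs (-1.40 and 0.77). On the arrays numbered 2, Krt18 and Acan read between 11.4 and 27.6, well under the boundary of 62.8, so nothing is read from their values there. Among smooth muscle markers Des was at 0.29 and Acta2 at 0.03. The 6 macrophage markers, 4 of them too dim to be tested, summed to 451 and 365 in PA1-/- arrays, against 400 and 295 in PA1+/+ arrays. In such bulk samples, fewer cells of a type and less RNA per cell cannot be told apart, and the part of the fibroblast markers in the values below was not tested.

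**Figure D1:**
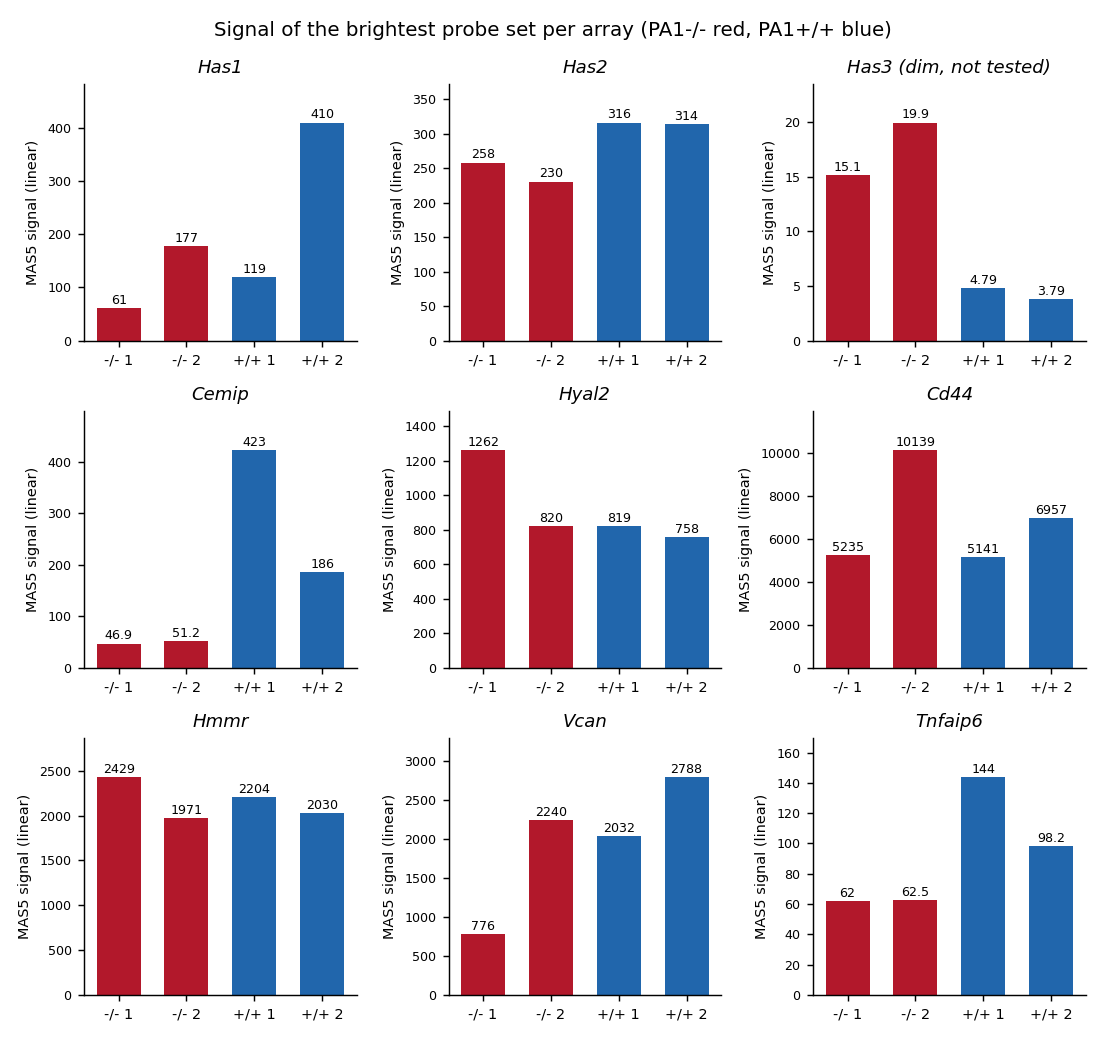
Linear MAS5 signal of the brightest probe set of 9 hyaluronan genes on each array, with PA1-/- arrays 1 and 2 in red and PA1+/+ arrays 1 and 2 in blue; bars start at 0 and each panel has its own scale. Cemip read 46.9 and 51.2 in PA1-/- arrays and 423 and 186 in PA1+/+ arrays, while Has1, Vcan and Cd44 were higher on the array numbered 2 than on the array numbered 1 in both genotypes.

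Among the synthases, Has1 and Has2 read lower in PA1-/- cells within both numbers. The fit with genotype as the only term called neither, as it called 0 of all tested probe sets. Has1 read 61.0 and 177 in PA1-/- arrays, against 119 and 410 in PA1+/+ arrays. The genotypes overlapped, because the PA1-/- array numbered 2 lay above the PA1+/+ array numbered 1, yet within each number PA1-/- was the lower. The difference was -1.01 (SE 0.765, n = 2 each), with -0.86 at number 1 and -1.17 at number 2. The gap between numbers was larger, at 1.40 in PA1-/- cells and 1.71 in PA1+/+ cells. The value for Has1 was -1.87 without the PA1+/+ array numbered 1 and -0.16 without the PA1+/+ array numbered 2.

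Has2 is known as the main synthase of mesenchymal cells and the one that mouse embryos cannot do without. Its brighter probe set read 258 and 230 in PA1-/- arrays, against 316 and 314 in PA1+/+ arrays. Both PA1-/- values lay below both PA1+/+ values, and the difference was -0.36 (SE 0.260). The dimmer probe set read 179 and 136 in PA1-/- arrays, against 278 and 170 in PA1+/+ arrays, where the groups overlapped (-0.45, SE 0.367). Has2 was 1.28-fold lower by the brighter and 1.37-fold lower by the dimmer probe set. With an array left out, the dimmer one ranged from -0.79 to -0.11.

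Has3 read 15.1 and 19.9 in PA1-/- arrays, against 4.79 and 3.79 in PA1+/+ arrays. These signals were higher in PA1-/- arrays at both numbers, but all 4 lay well under the boundary of 62.8 for testing, where MAS5 values have little precision.

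Enzymes that supply the UDP-sugars were all bright enough to be tested. Of these 7, 0 were at least 2-fold different in the same direction at both numbers. Over all tested genes 0.831% were that much lower and 0.187% that much higher, so nothing is read from this count. Their median difference was -0.15, against 0.02 over all 10714 tested genes, with 4 below 0 and 3 above. The 2 furthest from 0 were Pgm3, a phosphoglucomutase of the UDP-N-acetylglucosamine route, and Ugdh, which makes UDP-glucuronic acid. Pgm3 read 375 and 348 in PA1-/- arrays, against 563 and 561 in PA1+/+ arrays (-0.62, SE 0.247). Ugdh read 3399 and 3700 in PA1-/- arrays, against 4733 and 4789 in PA1+/+ arrays (-0.42, SE 0.177). For both enzymes the genotypes did not overlap with PA1-/- lower, as for 11.3% of all tested genes, and they were named for lying furthest from 0.

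On the side of breakdown, Cemip stood lowest of all the hyaluronan genes relative to PA1+/+ cells. Its brightest probe set read 46.9 and 51.2 in PA1-/- arrays, against 423 and 186 in PA1+/+ arrays. The PA1-/- values were close together and under the boundary of 62.8 for testing, so the probe set was tested through its level in PA1+/+ cells. The difference was -2.30 (SE 0.467, n = 2 each), or 4.94-fold lower, with -2.93 at number 1 and -1.68 at number 2. Most of the spread lay in PA1+/+ cells, since number 2 minus number 1 came to 0.11 in PA1-/- cells, against -1.15 in PA1+/+ cells. With a pseudocount at the median signal the difference was -1.62.

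The other 2 probe sets of Cemip did not follow this pattern. They were too dim to be tested and read 22.6 and 45.5 in PA1-/- arrays, against 27.4 and 12.9 in PA1+/+ arrays, and 18.9 and 2.99, against 1.82 and 5.56. In both the genotypes overlapped and the sign changed between numbers, so the value for Cemip rests on 1 probe set.

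Hyal2, a hyaluronidase anchored at the cell surface, read 1262 and 820 in PA1-/- arrays, against 819 and 758 in PA1+/+ arrays. The genotypes did not overlap, but the PA1-/- array numbered 2 and the PA1+/+ array numbered 1 were almost equal. The difference was 0.36 (SE 0.306), with 0.62 at number 1 and 0.11 at number 2. Without the PA1-/- array numbered 1 it was 0.057, and without the PA1-/- array numbered 2 it was 0.67.

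Of 9 other degradation genes on the list 3 were tested, Cemip2, Hexa and Gusb. All 3 were above 0 at both numbers, as were 33.9% of all tested genes, and their median was 0.12, against 0.02 over all tested genes. Cemip2 (also known as Tmem2), the closest relative of Cemip, read 558 and 416 in PA1-/- arrays, against 455 and 323 in PA1+/+ arrays (0.32, SE 0.321), with overlap. Hexa, a lysosomal hexosaminidase subunit, read 4306 and 6700 in PA1-/- arrays, against 4168 and 5839 in PA1+/+ arrays (0.12, SE 0.306). For Hexa the gap between numbers was the larger one in both genotypes. Hyal3, Hyal4, Hyal5, Hyal6 and Spam1, most of them known from testis, were too dim to be tested.

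**Figure D2:**
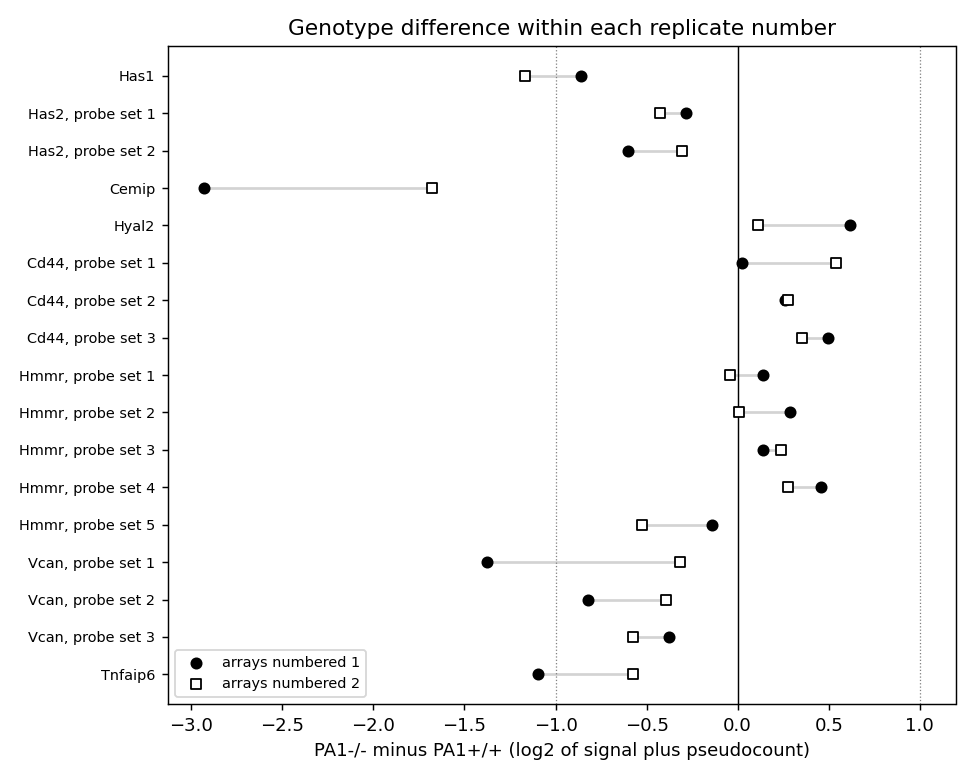
Difference between PA1-/- and PA1+/+ on the log2(signal + 9.96) scale for the 17 tested hyaluronan probe sets, between the arrays numbered 1 (filled circles) and those numbered 2 (open squares), with dotted lines at 2-fold; probe sets of a gene run from bright to dim. Cemip alone lies beyond the 2-fold line at both numbers, at -2.93 and -1.68, and all 3 tested probe sets of Vcan lie left of 0 and all 3 of Cd44 right of 0.

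The cell-surface receptor Cd44 read slightly higher in PA1-/- cells within each number by all 3 tested probe sets, and differed more between numbers than between genotypes. Its brightest probe set read 5235 and 10139 in PA1-/- arrays, against 5141 and 6957 in PA1+/+ arrays. At number 1 the genotypes were nearly equal, and the difference came from number 2 (0.03 and 0.54). The overall difference was 0.28 (SE 0.372). The other probe sets differed by 0.27 (SE 0.463) and 0.43 (SE 0.569), with overlap in each case. Between numbers, the 3 probe sets differed by 0.95, 0.95 and 1.07 in PA1-/- cells and by 0.44, 0.94 and 1.22 in PA1+/+ cells. Leaving out the PA1-/- array numbered 2 turned the sign of all 3 probe sets (-0.19, -0.21 and -0.11), and leaving out the PA1+/+ array numbered 1 turned 2 of them.

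Hmmr encodes RHAMM, which binds hyaluronan outside the cell and the mitotic spindle inside it. It differed least, with 2429 and 1971 in PA1-/- arrays, against 2204 and 2030 in PA1+/+ arrays by its brightest probe set (0.05, SE 0.225). The other 4 probe sets ranged from -0.33 to 0.37, and the genotypes overlapped in all of the 5 but the 1 at 0.37. Mitotic genes, with which Hmmr is known to be expressed, had a median difference of -0.02 over 11 tested, 6 below 0 and 5 above. The 2 furthest from 0 were the spindle kinase gene Aurka (0.28, SE 0.263) and Tpx2, which activates that kinase (0.20, SE 0.270).

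Of the secreted binding partners, Vcan and Tnfaip6 both read lower in PA1-/- cells within both numbers. Versican is a large proteoglycan that binds hyaluronan through its link domains and swells the matrix around cells. Its brightest probe set read 776 and 2240 in PA1-/- arrays, against 2032 and 2788 in PA1+/+ arrays. The PA1-/- array numbered 1 stood apart below the other 3, and the genotypes overlapped. The difference was -0.85 (SE 0.553), with -1.38 at number 1 and -0.31 at number 2. The other tested probe sets differed by -0.61 (SE 0.724) and -0.48 (SE 0.561). Without the PA1-/- array numbered 1 these were 0.24 and 0.01, and the brightest was at -0.088. Without the PA1+/+ array numbered 2 they were 0.02 and 0.11, so 2 of 3 probe sets turned sign with an array left out. Such fits set unequal numbers against each other. Within each number these 2 probe sets were lower in PA1-/- cells, at -0.82 and -0.38 for number 1 and at -0.39 and -0.58 for number 2. The other 5 probe sets of Vcan were dim, at 0.533 to 24.5.

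Tnfaip6 encodes TSG-6, an inflammation-induced protein that passes heavy chains of inter-alpha-inhibitor on to hyaluronan. It read 62.0 and 62.5 in PA1-/- arrays, against 144 and 98.2 in PA1+/+ arrays. The PA1-/- values were nearly identical, lay below both PA1+/+ values, and stood just under the boundary of 62.8. The difference was -0.84 (SE 0.339), with -1.09 at number 1 and -0.58 at number 2.

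Further binding and assembly genes had a median of -0.07 over 10 tested of 24, with 6 below 0 and 4 above. The 1 gene at least 2-fold lower at both numbers (0.831% of all tested genes) was Ptx3. Its product pentraxin 3 joins TSG-6 and inter-alpha-inhibitor in cross-linking hyaluronan. Ptx3 read 4712 and 42.4 in PA1-/- arrays, against 9503 and 191 in PA1+/+ arrays (-1.48, SE 2.78; -1.01 at number 1 and -1.94 at number 2). Its level was far higher on the arrays numbered 1 in both genotypes, a gap many times the genotype difference. Genes for linkers and sheddases of CD44 and proteases of versican had a median of -0.14 over 10 tested, with 7 below 0 and 3 above. Among them Adamts5, a versican-cleaving protease, read 2872 and 263 in PA1-/- arrays, against 3989 and 741 in PA1+/+ arrays (-0.97, SE 1.37). Ezr, which encodes ezrin, a linker between CD44 and actin, read 624 and 1361 in PA1-/- arrays, against 882 and 2762 in PA1+/+ arrays (-0.75, SE 0.678). Both differed more between numbers than between genotypes.

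**Figure D3:**
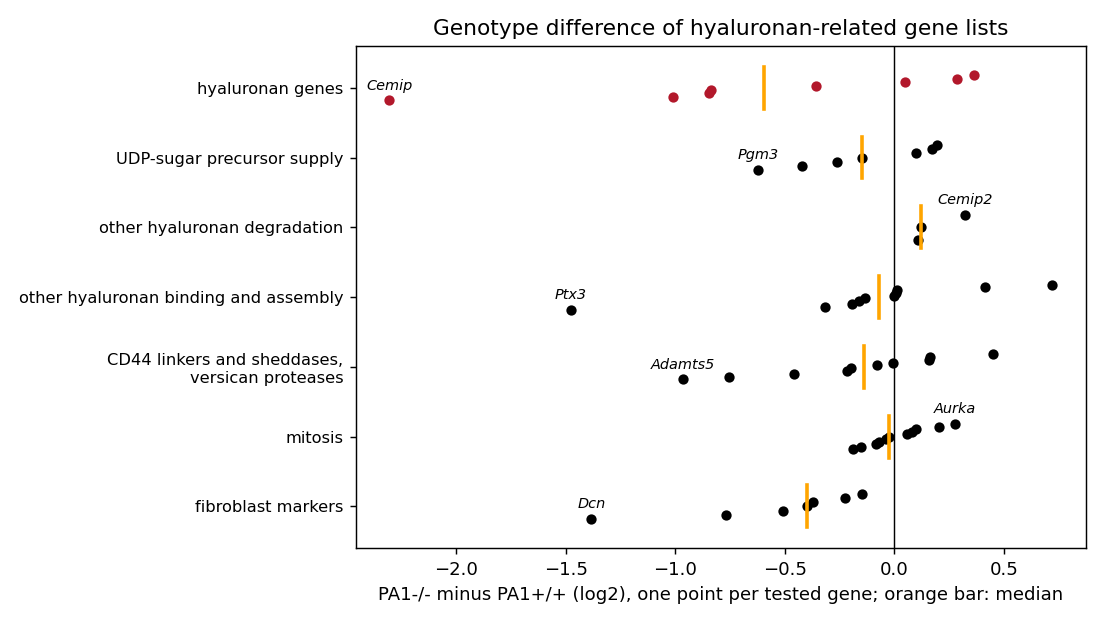
Difference between PA1-/- and PA1+/+ (log2) for each tested gene of the hyaluronan set (red) and of 6 related lists (black), with the median of each list as an orange bar and the gene furthest from 0 named. The hyaluronan set, drawn up with values of this contrast known, has a median of -0.60. The mitosis list has a median of -0.02, and the fibroblast markers lie between -1.38 and -0.15.

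Taken by gene, 5 of the 8 tested hyaluronan genes were lower at both numbers, namely Has1, Has2, Cemip, Vcan and Tnfaip6, against 29.3% of all tested genes. Cd44 and Hyal2 were higher at both, against 33.9%, and Hmmr had opposite signs. At least 2-fold lower at both numbers was 1 of 8, Cemip, against 0.831% of tested genes, and at least 2-fold higher were 0 of 8, against 0.187%. The genotypes did not overlap for 3 of 8 with PA1-/- lower (Has2, Cemip and Tnfaip6; 11.3% of tested genes) and for 1 of 8 with PA1-/- higher (Hyal2; 15%). Because the set was drawn up on this contrast, and Cemip and Tnfaip6 passed the filter through their PA1+/+ arrays, nothing is read from these counts. By probe set, 9 of 17 were lower at both numbers, 7 higher at both and 1 of mixed sign. The median over the 8 genes was -0.60, with -0.57 at number 1 and -0.37 at number 2, against 0.02 over all tested genes. The same limits hold for this median, and nothing is read from it.

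The difference between numbers, which played no part in choosing the set, divided the genes differently. Has1 (1.55), Vcan (0.99) and Cd44 (0.69) were higher on the arrays numbered 2, averaged over genotypes. Cemip (-0.52), Hyal2 (-0.36), Tnfaip6 (-0.25), Hmmr (-0.21) and Has2 (-0.08) were lower there. For 4 of the 8 genes, Has1, Cd44, Hmmr and Vcan, this difference was larger than the genotype difference, as it was for 67.5% of tested genes. For Cemip and Tnfaip6 it came almost wholly from PA1+/+ cells, since the PA1-/- arrays differed by 0.11 and 0.01.

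**Figure D4:**
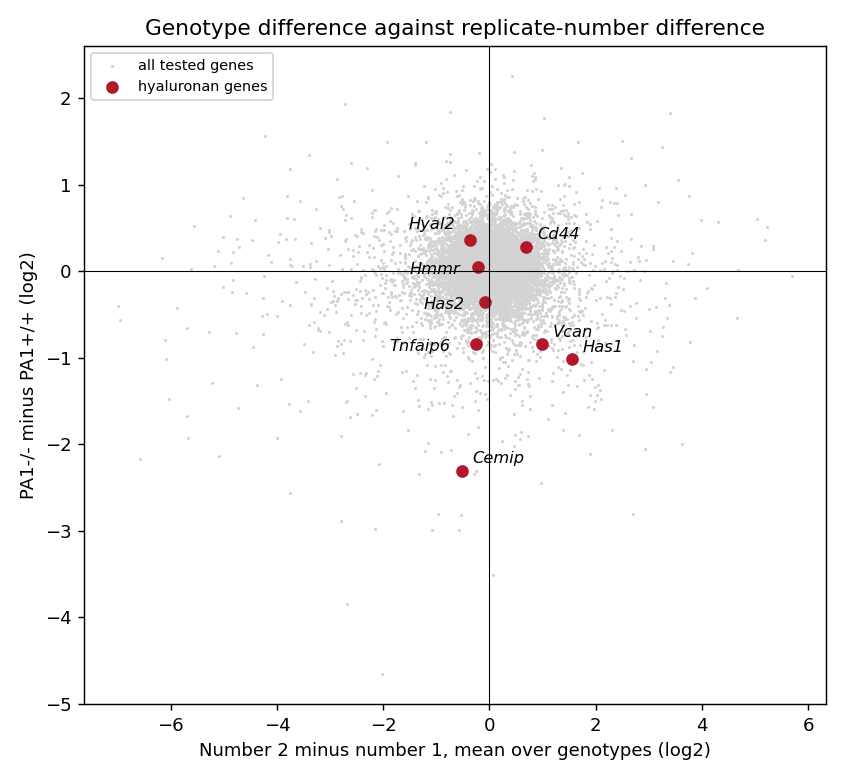
Genotype difference (vertical, PA1-/- minus PA1+/+, log2) against the difference between replicate numbers (horizontal, number 2 minus number 1 averaged over genotypes, log2) for 10714 tested genes (grey) and the 8 tested hyaluronan genes (red). Cemip lies at -2.30 vertically and -0.52 horizontally, while Has1 and Vcan are displaced to the right by 1.55 and 0.99.

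Promoter sequence is shown for the 4 hyaluronan genes that were lower at both numbers and have an entry in the RefSeq-derived promoter table (build GRCm38.p6), and for Hmmr as the gene that differed least. Of the 10 genes 8 matched the table. Each window runs from 250 bases before to 50 bases after an annotated transcript start, 5′ to 3′ on the strand of the gene. The windows are chr7:84086456-84086755 on the minus strand for Cemip, chr17:17855139-17855438 on the minus strand for Has1 and chr13:89742463-89742762 on the minus strand for Vcan. That of Tnfaip6 is chr2:52037863-52038162 on the plus strand, and that of Hmmr chr11:40733388-40733687 on the minus strand. Capitals mark matches, on either strand, to 6 motifs. They are the TATA box TATAAA, the NF-Y motif CCAAT, the E-box CACGTG, the AP-1 motif TGANTCA, the C/EBP motif TTGCNNAA, and an NF-kappaB motif of GGGA and CC with any 4 bases between.
Cemip: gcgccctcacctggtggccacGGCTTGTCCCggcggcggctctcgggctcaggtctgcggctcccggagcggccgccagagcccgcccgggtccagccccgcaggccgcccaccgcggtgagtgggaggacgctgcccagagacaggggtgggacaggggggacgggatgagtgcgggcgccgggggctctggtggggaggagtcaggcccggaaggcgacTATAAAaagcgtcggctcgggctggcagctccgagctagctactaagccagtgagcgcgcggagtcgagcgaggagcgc
Has1: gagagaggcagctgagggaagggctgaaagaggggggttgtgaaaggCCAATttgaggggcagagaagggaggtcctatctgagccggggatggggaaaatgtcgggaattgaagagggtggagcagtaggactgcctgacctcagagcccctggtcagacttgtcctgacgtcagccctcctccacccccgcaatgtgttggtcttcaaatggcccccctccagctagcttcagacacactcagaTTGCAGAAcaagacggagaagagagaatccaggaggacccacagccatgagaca
Vcan: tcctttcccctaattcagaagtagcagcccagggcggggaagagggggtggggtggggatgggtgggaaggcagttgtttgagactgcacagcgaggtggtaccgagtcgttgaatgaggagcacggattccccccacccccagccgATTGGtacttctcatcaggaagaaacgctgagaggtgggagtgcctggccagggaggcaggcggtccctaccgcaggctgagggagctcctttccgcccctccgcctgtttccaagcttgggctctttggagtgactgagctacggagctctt
Tnfaip6: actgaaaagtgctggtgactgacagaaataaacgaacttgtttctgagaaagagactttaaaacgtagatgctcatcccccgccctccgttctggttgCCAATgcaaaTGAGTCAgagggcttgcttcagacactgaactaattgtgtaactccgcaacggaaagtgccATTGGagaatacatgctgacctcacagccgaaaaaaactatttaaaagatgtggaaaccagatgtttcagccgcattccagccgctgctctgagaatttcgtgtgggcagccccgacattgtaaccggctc
Hmmr: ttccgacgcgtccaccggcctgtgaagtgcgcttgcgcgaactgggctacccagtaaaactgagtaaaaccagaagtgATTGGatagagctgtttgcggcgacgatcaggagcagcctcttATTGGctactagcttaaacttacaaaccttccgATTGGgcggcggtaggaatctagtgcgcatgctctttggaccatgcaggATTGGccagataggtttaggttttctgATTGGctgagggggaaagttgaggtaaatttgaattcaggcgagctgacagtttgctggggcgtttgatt

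The 4 promoters of the genes that were lower had no motif in common to all 4. Cemip had a TATAAA match starting 29 bases before its start, a motif found in 13.6% of 32851 promoters, and an NF-kappaB match on the opposite strand, found in 20.7%. Has1 had CCAAT (37.4% of promoters) and, starting 4 bases before the start, TTGCNNAA (10.8%). Tnfaip6 had TGANTCA (7.81%) between a pair of CCAAT matches, and Vcan a single CCAAT match. The Hmmr window held 5 CCAAT matches, all on the opposite strand, a number reached by 0.271% of promoters. None of the 5 windows held CACGTG (7.15%), and 0 matches overlapped. The Cemip window had 73.7% G and C and 33 CpG dinucleotides, against medians of 52.7% and 7 over all promoters, while the Has1 window had 57% and 5. A match describes the letters of the window and not a bound factor.

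Across the 4 arrays, the tested genes nearest to Cemip in pattern were Bmp4, Plac8 and Sorcs2, by Euclidean distance between centred log2 values (0.443, 0.471 and 0.499). Bmp4, a secreted morphogen of the TGF-beta family, read 460 and 569 in PA1-/- arrays, against 2814 and 1303 in PA1+/+ arrays. Plac8 read 241 and 238 in PA1-/- arrays, against 1458 and 1034 in PA1+/+ arrays. Sorcs2, a sorting receptor gene, read 104 and 70.3 in PA1-/- arrays, against 635 and 250 in PA1+/+ arrays. As with Cemip, the PA1+/+ array numbered 1 was the highest for each of them, which follows from how they were picked. A likeness over 4 arrays describes these arrays alone.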

How the data were processed

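Total RNA was biotin-labelled and hybridised to Affymetrix arrays, 2 per genotype, per the labels. The authors deposited linear intensity values, 1 signal per probe set, and the submitters' processing notes name MAS5. Its version and target are not given in the sources. Detection calls were not used. MAS5 values are usually scaled per array, which hides a shift common to all genes. Controls (64 probe sets) were left out. Of the other 45037, 34945 had 1 gene symbol in the platform annotation, 932 had several and named no gene, and 9160 had none.

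Signals were analysed as log2(signal + 9.96), 9.96 being their 20th percentile. The brighter 50% of probe sets were tested (22519), and a gene was read through its brightest tested one. PA1-/- arrays were set against PA1+/+ arrays in limma 3.58.1 under R 4.3.3 (eBayes with an intensity trend, 2-sided, 2 residual degrees of freedom). Benjamini-Hochberg adjustment at 0.05 ran over all tested probe sets. The number of arrays limits the precision.

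Members, lists and tests were chosen with earlier results of these data known. The text names all members, Pagr1a, the 3 genes nearest to Cemip and, per list, the genes at least 2-fold different at both numbers or else the 2 furthest from 0. Vim, Col1a2, Thy1 and the untested markers were added after their values were seen. Repeats used other normalizations (quantile, median, cyclic loess), pseudocounts (1 and 64.9), filters (none, upper 30%), eBayes settings and gene summaries, a replicate block, and 3 of the 4 arrays. Figures used matplotlib 3.10.9.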

Additional observations from a re-analysis of the deposited data

How the results depend on the processing

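Under 3 other normalizations, both pseudocounts, both other filters and both other eBayes settings, limma called 0 probe sets, as it did with any 1 array left out. Of 197 repeats of the 17 probe set differences, 183 kept their direction and their side of the threshold, 1 passed it and 13 turned direction, all 13 with an array left out. Such fits set unequal replicate numbers against each other. Every setting but the replicate block called 0 probe sets, so the side of the threshold could only stay the same there. The other filters and the replicate block left each difference they tested at its main value, so its direction could not turn under them. The count of 183 is therefore no measure of robustness. With an array left out, the 3 probe sets of Cd44 ranged from -0.19 to 0.76, from -0.21 to 0.75 and from -0.18 to 1.03. Those of Hmmr whose sign turned ranged from -0.10 to 0.20, from -0.091 to 0.38 and from -0.0095 to 0.39. Those of Vcan ranged from -1.46 to 0.24 and from -1.07 to 0.11. Cemip ranged from -2.88 to -1.73 and Hyal2 from 0.057 to 0.67. With the upper 30% filter 4 members were tested, Cemip not among them, so that 0 were at least 2-fold lower at both numbers.

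With the replicate number as a block, limma called 447 of 22519 probe sets (329 lower and 118 higher, 1.98%). Of the 17 hyaluronan probe sets 1 was among them, that of Cemip. Its low reading was known when the set was drawn up, so nothing is read from this. The SE of Has1 was 0.232 with the block and 0.765 without it. For the brighter probe set of Has2 it was 0.204 and 0.260. The labels do not say what the numbers stand for. Across tested probe sets, the difference between numbers correlated at 0.805 between genotypes, which is a hint from the data and not from the design.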
